A study of Homo sapiens with 4 samples.

Results

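The 1684 cytidine positions described here were listed in LX-2 cells after TGF-β1 and not in the untreated cells, and were chosen by a deposited mismatch difference of at least 10%. They make up 14.4% of the 11735 positions of the TGF-β1 list and 17.3% of the 9750 positions listed after TGF-β1 only. The control list held 8112 positions, the lists shared 1985, and together they held 17862. LX-2 is an established cell line of human hepatic stellate cells, and neither group carries a labelled genetic change. The control group was 2 untreated libraries. The other group was 2 libraries from cells given human recombinant TGF-β1 at 5 ng/ml for 24 h. The labels call the libraries of a group biological replicates of this 1 cell line. Polyadenylated RNA was sequenced after sodium borohydride (NaBH4). The 4 libraries include no labelled NaBH4-free control and none from NAT10-depleted cells, so the mismatch at a position was not shown here to come from an acetylated base.

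N4-acetylcytidine (ac4C) is a cytidine that carries an acetyl group. NAT10 writes it, and THUMPD1 is the adaptor that helps NAT10 on transfer RNA. NaBH4 reduces ac4C, and reverse transcriptase can then misread the reduced base, which leaves a mismatch in the reads. TGF-β1 drives hepatic stellate cells towards the contractile, collagen-secreting myofibroblast of the fibrotic liver.

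Each group has 1 deposited value per position, so no spread between libraries can be given and no test was made. The read depth is unknown, and no interval can be set on the level of a single position. A position that is not listed has no value, and its level is not known to be 0. Intervals on shares of positions are 95% Wilson intervals, which cover counting error only and take positions of 1 gene as separate. The level and the absence from control chose the members, so they are given as a description.

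The bases around the members are shown first, because the assay reads single cytidines. RefSeq promoter windows of build GRCh38.p14, which run from 250 bases before to 50 bases after a gene's start, hold 34 members, and the base on the listed strand is C at 34 of 34. Of these, 22 have 10 bases on either side within the window. The following 10 of the 22 are printed 5′ to 3′ with the listed cytidine in capitals. They include 4 with a CCG, the triplet in which well-studied ac4C sites lie, and the 4 of the 22 with the highest levels. No rule was set for printing RBM23, HIRIP3 and C1orf52. The printed lines are thus not a fair sample of the 22, and base shares are given below for all 22. The bases are genomic and can run past the end of an exon.
PPP2R3C: gaagctgctgCgcggaagtcg
DYNC1I2: tttggaaagcCgcggagctgg
TAPBP: ggcttcatggCtgaggaggtc
RABEP2: tccaaggtcaCggagagacgc
RBM23: cgccattttgCgggaagagga
COPS7A: gaacagctgcCggaggtgacg
STK25: cagagcgggcCgggggaggcc
HIRIP3: agcaaaatggCgcgggagaag
DPH1: tggtcgtatcCggggcagcgg
C1orf52: gtcatggcagCggaggagaag

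The PPP2R3C position, in the 5′ UTR of a regulatory subunit gene of protein phosphatase 2A, lies at chr14:35121973 on the minus strand and was listed at 37.7%. The DYNC1I2 position, in the 5′ UTR of a dynein intermediate chain gene, lies at chr2:171687771 on the plus strand and was listed at 36.1%. TAPBP, whose product loads peptides onto MHC class I, had its 5′ UTR position at chr6:33314060 on the minus strand at 22.2%. The RABEP2 position, in a noncoding exon, lies at chr16:28925457 on the minus strand and was listed at 20.1%. The other 6 printed positions were listed between 10.3% (C1orf52) and 16.3% (RBM23). The 4 bases after the cytidine are all A or G in the lines of RABEP2, RBM23, COPS7A, STK25, DPH1 and C1orf52. Such a run is more frequent in the printed lines than over all 22 members, where it was found at 10.

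The base after the cytidine was G at 16 of the 22 members, a share of 72.7% (51.8 to 86.8). Among the other TGF-β1 positions in these windows it was G at 82 of 143, or 57.3% (49.1 to 65.2), and among control positions at 73 of 133, or 54.9% (46.4 to 63.1). The unlisted cytidines of the same windows were followed by G in 31.3% of 1778 cases, and cytidines of all promoter windows in 19.9%. The listed cytidines, members or not, thus stood before a G more often than the cytidines around them. CCG was present at 6 of 22 members, or 27.3% (13.2 to 48.2), against 8.39% (4.87 to 14.1) of the other TGF-β1 positions, 12.8% of control positions, 10.6% of the unlisted cytidines and 6.99% of cytidines in all windows. Only A or G filled the 4 bases after the cytidine at 10 of 22 members, or 45.5% (26.9 to 65.3), against 27.3% of the other TGF-β1 positions, 29.3% of control positions and 9.56% of the unlisted cytidines. With 22 sequences near gene starts, the intervals of the members overlap those of the other listed positions in all 3 features. Each feature was read on the listed strand only, and CCG and a G after the cytidine overlap by construction.

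Levels of the 1684 members were mostly near the threshold. Their median was 14.3%, with quartiles of 11.7% and 19.2%, and 937 of them (55.6%) were under 15%. At the upper end 393 reached 20%, 141 reached 30% and 23 reached 50%. Just inside the threshold lay positions in RABEP2 (10%), GFOD2 (10.0013%) and RERE (10.0042%), and just outside lay positions in TBX2 (9.99884%), CAPN1 (9.99707%) and KANSL2 (9.99471%). The threshold fell in a continuous range of values.

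Positions of the same height also existed in control only. There 828 of 6127 control-only positions, or 13.5%, were at 10% or more, with a median of 13.9% and a highest value of 83.3%. Of the 1985 shared positions 485, or 24.4%, were at 10% or more after TGF-β1, with a median of 14.2%. The members differed from both sets in number more than in their middle level. All of these sets were cut at the same 10%, which holds their medians close together.

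**Figure D1:**
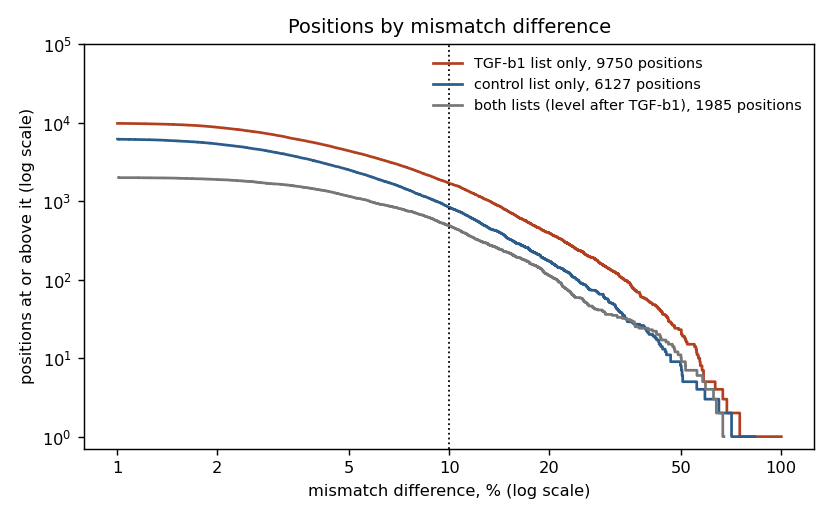
Number of positions at or above each mismatch difference (both axes on a log scale, difference in percent) for the 9750 positions in the TGF-β1 list only, the 6127 in the control list only and the 1985 in both (level after TGF-β1), with the 10% threshold dotted. At 10% the curves stand at 1684, 828 and 485 positions, with no break there.

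Most members lay in coding sequence, but fewer than among the lower TGF-β1-only positions. The authors' annotation put 1168 members in coding sequence, or 69.4% (67.1 to 71.5), against 77.0% (76.1 to 77.9) of the 8066 TGF-β1-only positions under 10%. It put 283 in 3′ UTRs, or 16.8% (15.1 to 18.7), against 11.8% (11.1 to 12.5). Noncoding exons held 56 members, or 3.33% (2.57 to 4.29), against 1.34% (1.11 to 1.61). In each of these 3 segments the intervals of the members and of the lower positions did not overlap. 5′ UTRs held 174 members, or 10.3% (8.97 to 11.9), against 9.79% (9.16 to 10.5), and 3 members were intronic.

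The lower coding share was also seen in the opposite direction. The 828 high control-only positions were coding in 61.4% (58.0 to 64.6) of cases, in 3′ UTRs in 21.5% (18.8 to 24.4) and in noncoding exons in 6.88% (5.35 to 8.82). High positions listed in both groups were coding in 77.9% (74.0 to 81.4). Seen from the segments, members made up 13.0% of coding positions after TGF-β1, 14.9% of those in 5′ UTRs, 20.1% (18.1 to 22.3) of those in 3′ UTRs and 29.3% (23.3 to 36.1) of those in noncoding exons, beside the 14.4% of all positions. The median member level was 14.1% in coding sequence, 14.2% in 5′ UTRs, 15.1% in 3′ UTRs and 18.3% in noncoding exons.

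**Figure D2:**
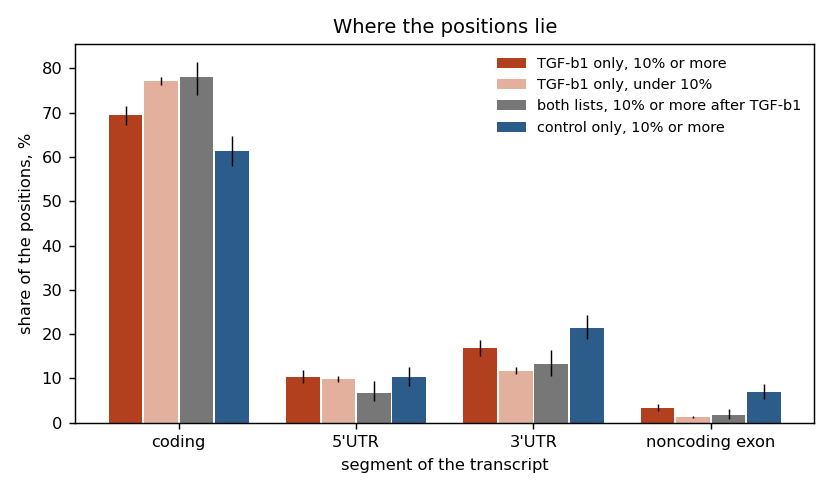
Share of positions in each transcript segment in percent, with 95% Wilson intervals as bars. The sets are the members, the TGF-β1-only positions under 10%, the shared positions at 10% or more after TGF-β1 and the high control-only positions. The coding share is 69.4% for the members, between the 61.4% of the high control-only positions and the 77.0% of the lower TGF-β1-only positions.

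The members fell in 1443 genes, of the 4449 genes with a position after TGF-β1. In 1210 of these genes there was 1 member, in 193 there were 2 and in 31 there were 3. Only 9 genes had 4 or more (6 genes with 4, 2 with 5 and 1 with 6). For 505 genes the member was the only position listed after TGF-β1. A position in a gene with a single listed position was a member in 26.6% (24.7 to 28.7) of 1817 cases, and in a gene with 11 to 74 positions in 7.46% (6.17 to 8.99) of 1341 cases. In control the share of high control-only positions likewise went from 15.8% of 2382 positions to 6.05% of 281 (genes with 11 to 26 positions). Genes with few listed positions thus gave high positions of 1 list more often in both directions.

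The gene had another position in control for 1005 of the 1684 members, a share of 59.7% (57.3 to 62.0). For the TGF-β1-only positions under 10% this share was 73.0% (72.0 to 73.9). High control-only positions had a TGF-β1 position in the gene in 47.5% (44.1 to 50.9) of cases, and lower control-only positions in 63.6% (62.3 to 64.9). In both lists, then, the high positions lay less often in a gene that the other list also held. Counted by gene, 619 of the 1443 genes (42.9%) had no control position, against 1113 of the 3006 TGF-β1 genes without a member (37.0%) and 1732 of all 4449 (38.9%). Of the 619, 349 had a single position over both lists. Another 445 genes had control positions, none of them shared with the TGF-β1 list, and 379 had at least 1 shared position. Whether the transcripts of the 619 genes were read deeply enough in control is not known, and fewer reads of a transcript and fewer mismatches in it cannot be told apart.

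The share with a control position in the gene differed by segment and by level. It was 66.1% (60.4 to 71.3) for members in 3′ UTRs, 60.4% (57.6 to 63.2) in coding sequence, 55.7% (48.3 to 62.9) in 5′ UTRs and 23.2% (14.1 to 35.8) in noncoding exons. It was 60.1% for members from 10% to under 15%, 64.4% from 15% to under 20%, 58.7% from 20% to under 30%, 50% (41.1 to 58.9) from 30% to under 50%, and 30.4% (15.6 to 50.9; 7 of 23) from 50% up. The 23 highest members thus lay mostly in genes that the control list did not hold. High control-only positions from 50% up had a TGF-β1 position in the gene in 2 of 8 cases, or 25% (7.15 to 59.1), against 49.2% from 10% to under 15%.

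**Figure D3:**
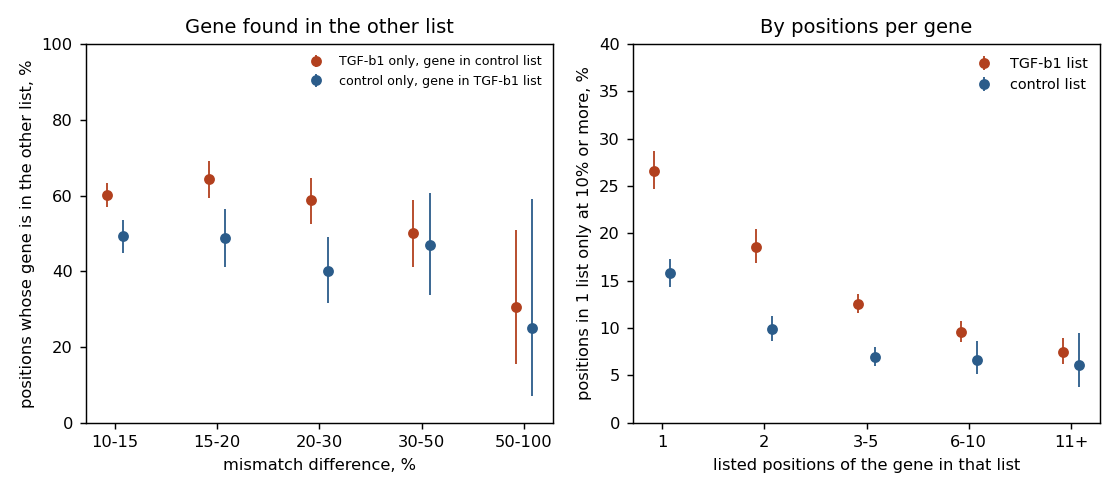
Left, the share of positions whose gene is in the other list, in percent, by mismatch difference, for members and for high control-only positions; right, the share of a list's positions that are in that list only at 10% or more, by the number of positions of the gene in that list (bars, 95% Wilson intervals). For members the left share is 60.1% from 10% to under 15% and 30.4% from 50% up, and the right share is 26.6% in genes with 1 position and 7.46% in genes with 11 or more.

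The authors' p-value was exactly 0 at 461 members, or 27.4% (25.3 to 29.6). This was so at 9.62% (8.996 to 10.3) of the TGF-β1-only positions under 10% and at 23.1% (20.3 to 26.1) of the high control-only positions. Of the shared positions at 10% or more after TGF-β1, it was so at 5.57% (3.85 to 7.98). Among members the share went from 23.5% between 10% and 15% to 56.5% (13 of 23) from 50% up. What a p of 0 stands for is not given in the sources used here. Members with a p of 0 had a control position in the gene in 51.6% (47.1 to 56.2) of cases, and the others in 62.7% (60.0 to 65.4). A p of 0 is marked for the highest members and for some of the others named below. Elsewhere a value without a mark can also have a p of 0. Examples are members of COL7A1 at 32.4%, NDST1 at 31.5% and WAC at 20.7%.

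The member with the highest level lay in the 5′ UTR of CBX3, which encodes the heterochromatin protein HP1-gamma, at chr7:26201549. It was listed at 100% with a p of 0, and the gene's 1 control position, 255 bases away, was at 5.13%. RPL23AP74, a pseudogene of a ribosomal protein gene, was listed at 74.98% (authors' p 7.27e-87) and had no other position. ACTN2, the alpha-actinin of muscle, followed at 68.6% with a p of 0. CCAR2, a nuclear regulator that binds the deacetylase SIRT1, had a 5′ UTR position at 66.7% with a p of 0, and its 2 control positions were at 3.67% and 4.40%.

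EPS15, an adaptor of clathrin-mediated endocytosis, was listed at 63.2% (authors' p 0.00624). ZNF8, a zinc finger gene, and TGFB2, which encodes the ligand TGF-β2, were both at 58.3% with a p of 0. HIBCH, a mitochondrial enzyme of valine breakdown, was at 57.7% (authors' p 5.91e-06). These 4 genes had no control position, and for EPS15, ZNF8 and HIBCH the member was also the only TGF-β1 position.

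BHLHE40, a transcriptional repressor linked to the circadian clock, had a 3′ UTR position at 57.0% (authors' p 3.23e-14), 245 bases from a control position at 4.87%. The keratin gene KRT79 was listed at 56.8% (authors' p 4.9e-18) with no control position. SFXN3, a mitochondrial sideroflexin, was at 56.2% with a p of 0 and had a control position at 5.29%. ODAD4, a docking protein of ciliary outer dynein arms, was at 55.7% with a p of 0 and had no control position. Of these 12 highest members, 1 per gene, 8 lay in genes that the control list did not hold, and 7 carried a p of 0.

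Members in noncoding exons included pseudogenes that are near copies of expressed genes. RefSeq matched 1400 of the 1443 genes, and pseudogenes held 21 members among 79 TGF-β1 positions (26.6%), transcribed pseudogenes 5 among 20, long noncoding RNAs 11 among 62 (17.7%) and protein-coding genes 1631 among 11526 (14.2%). The 79 pseudogene positions lay in 65 genes. Among all genes with 1 listed position, 26.6% of positions were members, as given above, so no excess is read for pseudogenes. Pseudogenes named here beside ACTBP2 and RPL23AP74 were chosen after their values were seen. ACTBP2, a beta-actin pseudogene, had 3 members at 13.8%, 20.4% and 40.1%, ACTG1P23 had 1 at 47.1%, EEF1GP2 1 at 50% and YBX1P10 1 at 51.7%, and none of them had a control position. Most of their parent genes were listed too. ACTB had 4 and ACTG1 had 7 TGF-β1 positions, none a member, RPL23A was on neither list, and EEF1G and YBX1 had 1 member each, at 21.7% and 20.4%. How the authors placed reads that fit both a pseudogene and its parent is not given in the sources used here, so these positions are uncertain.

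RBM25, a splicing regulator, had the most members. Its 6 TGF-β1 positions were all members and all coding, at 12.6%, 12.6%, 15.8%, 15.2%, 15.7% and 28.1% along 9740 bases. The gene's 2 control positions lay within this stretch at 4.03% and 1.11%, and neither was listed after TGF-β1. TNC, the matrix glycoprotein tenascin-C, had 5 coding members from 10.3% to 16.4% among 11 TGF-β1 positions. Its 9 control positions, from 1.32% to 6.56%, were all other bases, and 3 of them lay in the 5′ UTR, where no TGF-β1 position was listed. RBM25 and TNC thus were on both lists without a shared base.

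PTPRF, a receptor tyrosine phosphatase of cell contacts, had 5 members from 11.5% to 20.2% among 13 TGF-β1 positions. Its 2 shared positions were at 6.34% and 7.66% in control and at 10.3% and 11.6% after TGF-β1. COL7A1, the collagen of anchoring fibrils, had 4 coding members at 10.3%, 10.99%, 17.7% and 32.4%, while its 2 shared positions were lower after TGF-β1 (2.56% against 5.35%, and 4.03% against 9.21%). In these 2 genes the shared bases thus differed in opposite directions beside members of similar height. MYO9B, an unconventional myosin, had 4 members from 10.9% to 19.2% among 15 TGF-β1 positions, and 2 of its 6 control positions, at 14.8% and 19.2%, were as high and in control only.

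NDST1, which sulphates heparan sulphate chains, had 4 members, at 11.1% in the 5′ UTR, 14.4% and 31.5% in coding sequence and 17.9% in the 3′ UTR. RABL6, a GTPase-like protein, had 4 members from 11.9% to 15.8% among 13 TGF-β1 positions. SMC1A, a cohesin subunit, had 4 members from 11.3% to 12.4% beside 9 control positions from 1.10% to 4.77%. ILRUN had 3 members at 16.7%, 29.7% and 47.8% within 41 bases of its coding sequence, and its other positions lay at 9.91% or below. Members of 1 gene could thus lie in a cluster, as in ILRUN, or far apart, as in TNC.

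**Figure D4:**
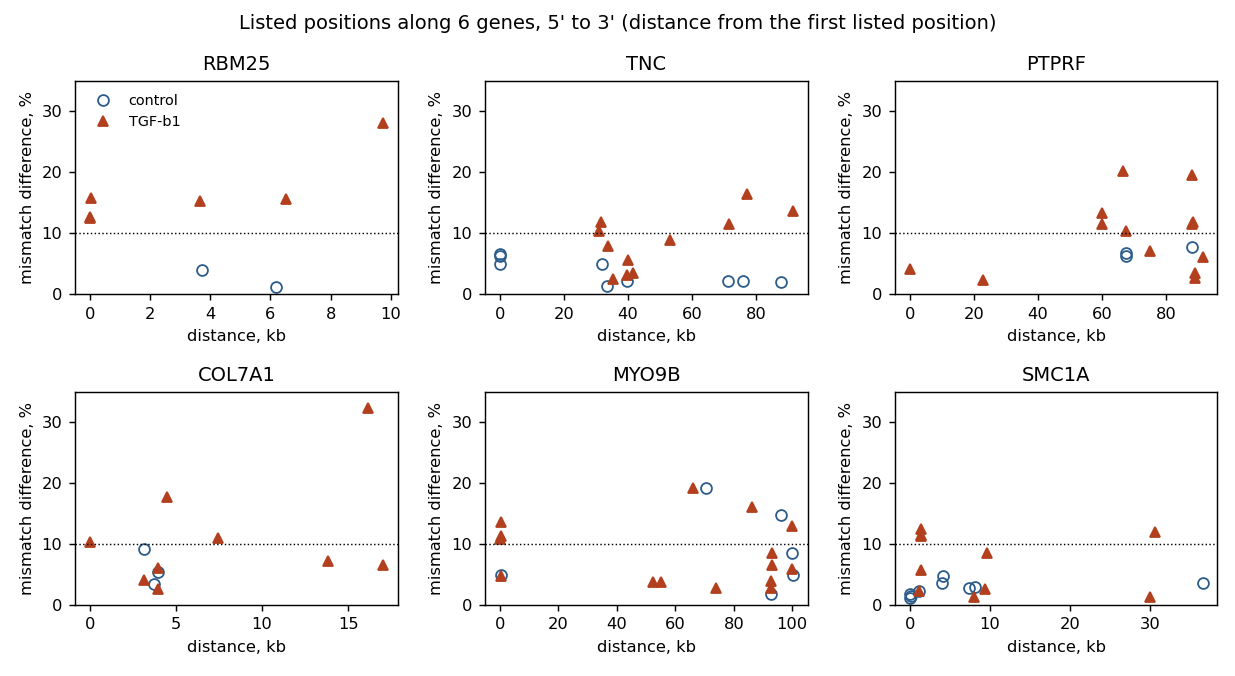
Mismatch difference in percent along 6 genes, with distance in kb from the first listed position in transcript direction, for control positions (open circles) and TGF-β1 positions (triangles), the dotted line marking 10%. In RBM25 and TNC every control position is under 10%, while in MYO9B 2 control-only positions reach 14.8% and 19.2%.

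Among genes with no control position, WAC, an adaptor in histone H2B ubiquitination, had the most members. Its 4 TGF-β1 positions lay within 18 coding bases at 15.9%, 20.7%, 20.5% and 13.5%. FBXW5, an F-box protein of ubiquitin ligases, had 3 members at 10.5%, 25.3% and 39.3% and 3 lower positions. HIC1, a transcriptional repressor, had a coding member at 11.9% and neighbouring 3′ UTR members at 30.4% and 22.5%. The WAC members thus lay close together, while those of FBXW5 spread over 1759 bases and those of HIC1 over 2509.

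FAAP100, of the Fanconi anaemia core complex, had 3 members at 10.6%, 11.9% and 41.0%. ELOB, the elongin B subunit, had neighbouring coding members at 18.3% and 18.3% and a 3′ UTR member at 12.1%. ARMC6 had 3 members at 12.2%, 15.1% and 18.1%, and RABEP2, an effector of endosomal Rab proteins, had 3 at 10%, 10.1% and 20.1%. The genes WAC and RABEP2 had no TGF-β1 position that was not a member.

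Some members lay side by side. Each member was paired only with the next member along the chromosome. Of the 22 such pairs within 10 bases, the median difference was 1.87 points, and 8 pairs differed by over 5 points. For the 8 pairs 1 base apart the median was 1.80 points. Small differences are favoured by the selection, since most members lie just above 10%. The RBM25 pair (12.6% and 12.6%) and the ELOB pair were the closest, and the HIC1 pair (30.4% and 22.5%) was the widest of the 8. Another TGF-β1 position lay within 10 bases of 116 members, or 6.89% (5.77 to 8.20), and of 13.96% (13.2 to 14.7) of the TGF-β1-only positions under 10%. Members thus had a listed TGF-β1 neighbour less often than the lower positions. The share of members was also higher in genes with few listed positions, as given above. How much of the difference goes with this was not tested, here or for the control distances below.

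The same was seen against the control list. Among the 1005 members with a control position in the gene, the median distance to the nearest was 2156 bases, against 1158 bases for the 5885 lower TGF-β1-only positions. It was 10 bases or less for 50 members, or 4.98% (3.79 to 6.50), against 9.09% (8.38 to 9.85). At 30 members the neighbouring base was listed in control. The member's level was above that neighbour's control level in 29 of the 30, with medians of 13.4% and 6.87%; the selection at 10% favours this order. At 12 of the 30 the neighbour was in both lists, and at 18 in control only.

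Since 30 members tied at a distance of 1 base, the 5 given first were taken in order of coordinate. XPC, a DNA damage sensor of excision repair, was listed at 19.2% beside a control base at 5.87%. SIN3B, a corepressor scaffold, was at 35.4% with a p of 0 beside a control base at 11.4%. PIP4P1 was at 14.3% beside 7.36%, and GSTT2B, a glutathione transferase with a near-identical gene copy that makes its position uncertain, was at 10.5% with a p of 0 beside 4.72%. In these 4 genes the control base was not listed after TGF-β1. LSM4, an RNA-binding protein of the spliceosome, was at 16.9% beside a base listed in both groups, at 5.45% in control and 11.9% after TGF-β1. Others were chosen after their values were seen. SCAMP1-AS1, a noncoding RNA, had the highest level of the 30, at 45.7% beside a control-only base at 11.1%. ORAI2, a calcium channel subunit, was the 1 member below its neighbour's control level, at 13.1% beside a base at 15.7% in control.

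High positions of each list alone met in the same gene in 124 cases. This was 8.59% (7.25 to 10.2) of the 1443 genes with a member and 16.1% (13.7 to 18.9) of the 768 genes with a high control-only position. For the base rate, 824 of all 4387 genes of the control list held a member. Of all 4449 genes of the TGF-β1 list, 32.4% (31.1 to 33.8) held one. No excess is read from the 124 cases. Examples chosen after their values were seen include BAG4, a chaperone regulator, with a member at 28.0% and a control-only position at 29.5% that lay 1797 bases apart. FBXO21, an F-box protein, had a member at 55.5% and a control-only position at 10.9%.

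Shared positions in these genes, which the selection did not use, were mostly higher after TGF-β1, as they were elsewhere. In genes with a member, 479 of 628 shared positions were higher, or 76.3% (72.8 to 79.4), with medians of 3.87% in control and 5.71% after TGF-β1. In genes without a member, 1077 of 1357 were higher, or 79.4% (77.1 to 81.4), with medians of 3.71% and 5.78%. The median difference, TGF-β1 minus control, was 1.59 points in the first set and 1.85 points in the second. The intervals of the 2 shares overlapped.

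Gene lists for a stellate cell line and its main cell functions held 157 of the 1684 members, or 9.32% (8.03 to 10.8). The share of all TGF-β1 positions that fell in these lists is not given here, so the 9.32% has no background beside it. A different share, that of members among a list's own TGF-β1 positions, was set against the 14.4% of all TGF-β1 positions. It was lower in 15 of the 16 lists with over 10 TGF-β1 positions. In 7 lists the whole interval lay below 14.4%, and in none above it. The stellate list had 286 positions in 30 genes, and the share of members was lower in genes with many positions, as given above; the part of this in the lists' shares was not tested.

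Matrix genes gave the largest number of members of any list. Collagens and matrix proteins had 27 members among 196 positions, or 13.8% (9.64 to 19.3), near the 14.4% of all positions. Of the 27, 26 lay in genes that the control list also held, against 59.7% of all members. The 196 positions lay in only 23 genes. The same share for the list's other positions is not given here, so the count is not read as a trait of these members. COL4A1, a basement membrane collagen, had coding members at 41.9% and 28.7% beside 5 control positions. COL6A1, a microfibrillar collagen, had 1 at 22.1%. COL1A1, the main fibrillar collagen of scar tissue, a stellate marker here, had 1 at 11.2% and 4 control positions. COL7A1 and TNC, given above, were also among the 4 genes with the highest members.

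Enzymes and inhibitors that process matrix had 11 members among 113 positions, or 9.73% (5.52 to 16.6). TIMP3, an inhibitor of metalloproteinases, had coding members at 39.8%, 27.5% and 16.5%, with 1 control position in the gene. PLAU, the urokinase that activates plasminogen, had 2 members, the higher at 29.8% in the 3′ UTR, and no control position. MMP14, a membrane-bound collagenase, had members at 29.3% in coding sequence and 24.3% in the 5′ UTR. CTSB, the lysosomal protease cathepsin B, had 1 of its 10 TGF-β1 positions among the members, at 12.7% in coding sequence.

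Genes of stellate activation and contraction had 15 members among 286 positions, or 5.24% (3.20 to 8.47), below the 14.4% of all positions. PDGFRB, the platelet-derived growth factor receptor of stellate cells, had its 2 positions at 46.8% and 18.9% and none in control. PDLIM7, an actin-associated protein, had members at 33.0% and 17.4%. TLN1, which links integrins to actin, had members at 18.1% and 13.6% among 22 positions. TLN1 thus had most of its positions under 10% or in both lists.

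The stellate markers fixed for the check of the cell line were partly listed. TAGLN had 2 control and 9 TGF-β1 positions with 1 member at 11.3%, VIM had 3 and 6 with no member, and ACTA2 had none in control and 2 after TGF-β1, the higher at 7.80%. COL1A2 and DES were on neither list. The 12 hepatocyte markers were on neither list, Kupffer and immune markers had 3 control and 2 TGF-β1 positions, and endothelial and cholangiocyte markers had 1 control position; none of these was a member. A listed position needs the transcript to be read, and a missing one says nothing of its level.

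Integrins and focal adhesion genes had 10 members among 65 positions, or 15.4% (8.58 to 26.1). PXN, the adaptor paxillin, had 1 at 42.6% in a noncoding exon. ITGB5, an integrin beta subunit, had its only TGF-β1 position at 30.05%, and its only control position was at 23.0%. CAPN1, a calcium-dependent protease, was listed at 18.3% and TNS1, the adaptor tensin, at 16.4%. The highest control position was at 25.8% in TNS1, above its member, at 11.3% in CAPN1 and at 5.26% in PXN. The share was near that of all positions.

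Ligands, receptors and SMAD proteins of TGF-β signalling had 2 members among 50 positions, or 4.0% (1.10 to 13.5). Both were ligand genes. TGFB2 had its member at chr1:218346824 in coding sequence, given above at 58.3%, and TGFB1 had a 3′ UTR member at 10.5% (authors' p 1.97e-07) with 4 control positions in the gene. No receptor or SMAD gene of the list had a member.

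**Figure D5:**
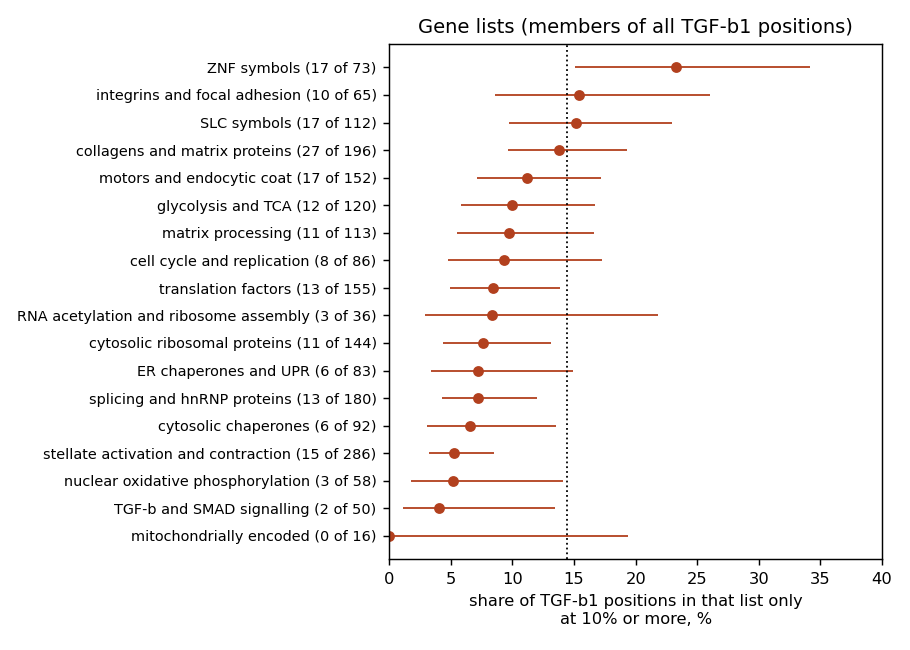
Share of each list's TGF-β1 positions that are members, in percent, with 95% Wilson intervals as bars and the 14.4% of all TGF-β1 positions dotted. Stellate activation genes stand at 5.24% and collagens and matrix proteins at 13.8%; the ZNF and SLC lists were added after the values were seen.

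Genes of protein synthesis had few members for their number of positions. Translation factors had 13 among 155 positions, or 8.39% (4.97 to 13.8), led by the initiation factor subunit EIF3L at 26.4%, the elongation factor subunits EEF1G at 21.7% with a p of 0 and EEF1D at 20.7% with a p of 0, and EIF2B1 at 17.2%. Cytosolic ribosomal protein genes had 11 among 144, or 7.64% (4.32 to 13.2). RPS15A led them at 24.0%, followed by RPL13A at 15.8%, RPSA at 14.8% and RPL9 at 13.2%. Ribosomal protein genes have many pseudogene copies, so these positions share the uncertainty given above. RNA acetylation and ribosome assembly genes had 3 members among 36 positions, or 8.33% (2.87 to 21.8), an interval that holds the 14.4% of all positions. They lay in genes of nucleolar proteins, WDR43 at 11.5%, BOP1 at 11.1% and NOLC1 at 10.4%.

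NAT10 and THUMPD1 had no member. NAT10 was listed at 2 bases in control, at 2.97% and 1.46%, and at the second of these after TGF-β1 with 2.26%. THUMPD1 had 1 control position at 5.70% and none after TGF-β1.

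Splicing and hnRNP genes had 13 members among 180 positions, or 7.22% (4.27 to 11.96). The RNA helicase DDX17 had its only TGF-β1 position at 43.5% beside 5 control positions, the highest at 14.9% and in control only. U2AF2, which recognises the 3′ splice site, had a 3′ UTR member at 37.7%, and HNRNPUL1 had 1 at 23.2%. SRRM2, a protein of nuclear speckles, had 3 with the highest at 21.4%, and a control-only position at 10.9%. The highest control positions of U2AF2 and HNRNPUL1 were at 5.75% and 7.40%. Most of these members, 12 of 13, lay in genes that the control list also held, against 59.7% of all members. The 180 positions lay in 32 genes, and the same share for the list's other positions is not given here.

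Motors and the endocytic coat had 17 members among 152 positions, or 11.2% (7.10 to 17.2). Beside EPS15 and DYNC1I2, given above, they included PICALM, a clathrin assembly protein, at 29.7% and the kinesin KIF1C at 21.2%, the latter among 21 TGF-β1 positions. ER chaperones had 6 among 83, or 7.23% (3.36 to 14.9), led by KDELR2, a receptor that returns ER proteins, at 34.96% in the 3′ UTR and by HSPA5, the main ER chaperone, at 18.8%. SDF2L1 followed at 13.8% with a p of 0 and COPB2, a coat subunit, at 13.2%. Cytosolic chaperones had 6 among 92, or 6.52% (3.02 to 13.5), in DNAJB1 at 16.3% and 10.2%, HSPA9 at 16.0% and 15.2%, HSPD1 at 12.1% and HSPH1 at 11.5% with a p of 0.

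Metabolic and cell cycle genes gave the remaining members of these lists. Glycolysis and the TCA cycle had 12 among 120, or 10% (5.81 to 16.7), with IDH2, a mitochondrial isocitrate dehydrogenase, at 23.2% with a p of 0 and ENO2 and ENO1, the enolases, at 17.8% and 17.6%. Nuclear genes of oxidative phosphorylation had 3 among 58, or 5.17% (1.77 to 14.1), among them the complex I subunit NDUFS1 at 16.1% and the complex II subunit SDHA at 13.6%. Mitochondrially encoded genes had 0 among 16 (0 to 19.4%), an interval that holds the 14.4% of all positions. Cell cycle and replication genes had 8 among 86, or 9.30% (4.79 to 17.3), with the polymerase subunit POLE at 29.0%, the sliding clamp PCNA at 28.2% with a p of 0, the spindle factor TPX2 at 13.1% and the mitotic kinase PLK1 at 12.7% with a p of 0.

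Lists by symbol were added after the values were seen. Genes with ZNF symbols, mostly zinc finger transcription factors, had 17 members among 73 positions, or 23.3% (15.1 to 34.2), against the 14.4% of all positions. These 73 positions lay in 39 genes. Over the whole TGF-β1 list, the share of members was 26.6% in genes with 1 listed position and 18.6% in genes with 2. The part of this in the ZNF share was not tested, so no excess is read from it. Beside ZNF8 they included ZNF48 at 32.2%, ZNF276 at 25.8% and ZNF787 at 25.4%. In control 14 of 75 ZNF positions were high and in control only, or 18.7% (11.5 to 28.9), against 828 of all 8112 control positions (10.2%). Genes of solute carriers (SLC symbols) had 17 members among 112 positions, or 15.2% (9.70 to 23.0), led by the lactate transporter SLC16A3 at 29.9% in its 3′ UTR.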

How the data were processed

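Cytidine mismatches were measured after NaBH4 in 2 untreated and 2 TGF-β1-treated LX-2 libraries. Build hg38 and the tools STAR 2.7.6a, fastp 0.23.1 and featureCounts are named, without their roles, per the submitters' processing notes. Which caller was used and how replicates were joined is not given in the sources used here. For each group the deposited table has a fraction per position, set by the authors, called the mismatch difference and printed in percent here, no lower than 1.0001%. What was subtracted from what is not stated. The deposited p-value of every position is under 0.05, with any adjustment not stated.

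Lines of the same position and strand were merged, and the end coordinate was taken as the 1-based position, which RefSeq promoter windows bore out at 334 of 334 listed positions (C on the listed strand). Members are TGF-β1 positions absent from control with a fraction of at least 0.1. The 45 members annotated to several genes count once as positions and once per gene. With no reads per library, no model, leave-one-out fit or test could be made, so the tables are described by counts and shares with 95% Wilson intervals. The members and the 19 gene lists were chosen with earlier results of these data known, and 2 lists were added after their values were seen. Named genes followed a rule: the 12 highest members, 1 per gene; the 10 genes with most members; the 8 with most members and no control position; up to 4 genes per list; the 3 positions on each side of the threshold; the 5 members nearest to a control position, ties by coordinate; NAT10 and THUMPD1. Some genes under this rule are not reported here. The code of the selection was checked on simulated tables with planted members, which a correct rule must return. This check says nothing of noise, read depth or false members in these data. Python 3.11.15, pandas 2.3.3 and scipy 1.17.1 were used. Alternatives changed the threshold, the p limit, the treatment of p of 0, positions of several genes, control neighbours, members per gene and list length.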

Additional observations from a re-analysis of the deposited data

How the results depend on the processing

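Of 49 values recomputed under 9 alternatives, 36 stayed within 1.5 times the count of members or within the share's interval, and 13 moved. None of the alternatives has a test. The number of members was 4344 at a threshold of 5% and 393 at 20%, and it lay between 1223 and 1684 under the other 7. The coding share was 72.8% at 5%, 65.4% at 20% and 71.8% with p of 0 left out. The 3′ UTR share was 14.4% with p of 0 left out. The share with a control position in the gene was 65.4% at 5%, 54.5% at 20%, 62.7% with p of 0 left out and 57.3% with 1 member a gene. The share in the gene lists was 11.4% at 5%, 7.89% at 20% and 11.2% with p of 0 left out. Of 135 named member positions, 53 remained at 20%, 86 with 1 member a gene, 101 with p of 0 left out and 114 with p under 0.001. No paired analysis was possible because the tables hold 1 value per group, and for the same reason no replicate could be left out. A coverage minimum was not run because depth is unknown, so the precision of a single level is not known.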

Other observations

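By chromosome, the share of TGF-β1 positions that were members was 23.3% (65 of 279; 95% Wilson interval 18.7 to 28.6) on chromosome 10 and 9.02% (83 of 920; 7.34 to 11.05) on chromosome 11, with 14.4% over all chromosomes. These 2 chromosomes were picked after the values of all were seen. Members lay on the plus strand in 827 cases and on the minus strand in 857. The genes with a member had a median span of 28010 bases, against 22534 bases for the other genes of the TGF-β1 list.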
